A study of Mus musculus with 8 samples.

Results

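Klf9 and 8 other genes known to respond to glucocorticoid or to cell stress were followed in hearts of newborn mice with and without connexin43, the gap junction protein encoded by Gja1. Klf9 and Nupr1 were chosen from measured values of this same comparison, because they had low values in null hearts with little overlap in spread. Tsc22d3, Fkbp5, Per1, Sgk1, Mt1, Mt2 and Cebpd were added as genes of related responses. A gene was used if at least 1 probe that carries its symbol alone was measured on 3 or more arrays of both genotypes. This held for 7 of the 9 genes, out of 11804 features measured that well, of which 7603 were named genes. The 7 were Klf9, Nupr1, Tsc22d3, Fkbp5, Per1, Mt1 and Mt2, with 12 probes between them.

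The samples were 4 pools of wildtype and 4 pools of connexin43 null hearts from neonatal C57BL mice, each pool made of 3 hearts. Each array compared 1 pool, labelled with Cy3, with a Cy5-labelled reference mixed from organs of adult males and females, such as brain, liver, kidney, lung, spleen and heart itself. Exact age, litter and sex of the newborns, and the way the null allele was made, are not given in the labels. Each value is the log2 of heart over reference, set so that the median spot of each array is 0. A difference of 1 on this scale is a factor of 2. Because the hearts were measured whole, fewer cells of a type and less RNA per cell cannot be told apart.

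Glucocorticoid enters the cell, binds its receptor, and the receptor moves to the nucleus, where it binds DNA near its target genes. Tsc22d3, Fkbp5, Per1, Sgk1 and Klf9 are among the targets used to read that response in many tissues, and glucocorticoid around birth is known to help the heart muscle mature. Klf9 is a zinc finger transcription factor of the Kruppel-like family and is also induced by thyroid hormone. Nupr1 is a small nuclear protein that rises under many cell stresses, in part through the factor ATF4. Mt1 and Mt2 are metallothioneins, which bind zinc and copper and are induced by metal and by glucocorticoid.

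The sequences before the transcription start are shown for the genes with the largest differences, Klf9 and Nupr1. Those of the metallothionein pair, which metal induces, are shown too. They come from RefSeq, build GRCm38.p6, and run 5′ to 3′ on the gene's strand over the 250 bases before the annotated start. Capitals mark matches, on either strand, to the motifs searched: AGAACA (1 arm of the glucocorticoid receptor's palindrome), TGCACNC or TGCGCNC (metal response element core), TGATGNAAT (ATF4 element), CACGTG (E-box), GGGCGG (GC box), AGGTCA (1 arm of elements of thyroid hormone and related receptors) and TGACGT (part of the cAMP response element).
Klf9, chr19:23140976-23141225, plus strand: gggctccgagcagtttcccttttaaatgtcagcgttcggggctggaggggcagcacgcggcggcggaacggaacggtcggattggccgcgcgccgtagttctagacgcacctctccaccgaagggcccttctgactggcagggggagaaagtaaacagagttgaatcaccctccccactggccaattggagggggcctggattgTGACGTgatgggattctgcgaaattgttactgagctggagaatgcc
Nupr1, chr7:126625471-126625720, minus strand: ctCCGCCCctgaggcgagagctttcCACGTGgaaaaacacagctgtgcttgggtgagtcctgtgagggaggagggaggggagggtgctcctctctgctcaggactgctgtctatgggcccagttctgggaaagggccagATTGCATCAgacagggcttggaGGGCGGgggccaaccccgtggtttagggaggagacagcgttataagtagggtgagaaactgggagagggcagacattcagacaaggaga
Mt1, chr8:94178839-94179088, plus strand: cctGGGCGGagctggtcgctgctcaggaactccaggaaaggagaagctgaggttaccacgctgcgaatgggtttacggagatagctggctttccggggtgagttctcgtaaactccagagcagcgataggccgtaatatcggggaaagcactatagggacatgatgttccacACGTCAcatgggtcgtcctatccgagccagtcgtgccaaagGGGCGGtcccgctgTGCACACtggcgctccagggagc
Mt2, chr8:94172368-94172617, plus strand: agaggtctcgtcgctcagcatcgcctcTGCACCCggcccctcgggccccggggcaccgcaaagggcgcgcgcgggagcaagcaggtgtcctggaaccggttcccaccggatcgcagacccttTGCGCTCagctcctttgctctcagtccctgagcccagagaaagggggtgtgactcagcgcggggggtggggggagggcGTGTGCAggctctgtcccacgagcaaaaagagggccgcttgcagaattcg

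Among 32817 such windows of mouse genes, TGACGT matched in 6.46%, the ATF4 element in 0.817%, the E-box in 6.02%, the GC box in 32.7% and the metal element core in 21.4%. In the Klf9 window the 1 match was TGACGT, from 46 to 41 bases before the start. The Nupr1 window held ATTGCATCA, the ATF4 element read on the other strand, from 111 to 103 bases before the start, besides an E-box and 2 GC boxes. Within its window the metal element core matched 1 time before Mt1, which also held TGACGT and 2 GC boxes, and 3 times before Mt2. Elements outside the windows, or after the annotated start, were not searched. None of these 4 windows matched AGAACA, which 16.1% of all windows hold, or AGGTCA, which 14.0% hold. Of the other measured genes, 1 of the 3 start windows of Tsc22d3 matched AGAACA, 1 of the 2 of Per1 had the AGGTCA arm, and Fkbp5 and Per1 each had an E-box. The whole palindrome, 2 arms with 3 bases between them, was found in 3 of all windows. One of those, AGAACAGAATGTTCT, lies in 1 of the 6 start windows of Sgk1, a gene without enough values here. A match describes letters in the window and not a bound site.

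The arrays had values at 45.2% to 83.4% of their 28704 spots, with wildtype replicate 1 lowest and least like the others (median rank correlation 0.58, against 0.66 to 0.79). Gja1 read 1.04, 1.31, 0.99 and 0.79 in wildtype and -0.29, 0.25, 0.12 and 0.22 in null hearts, all lower, as the labels state (exact two-sided permutation test, p = 0.0286, the smallest that 70 assignments of 8 arrays allow). Whether its probe lies in the deleted part is not known here. Of the heart muscle markers 5 of 17 were measured, Myl7, Tnnc1, Actn2, Pln and Ttn, with mean ratios of 0.84 to 1.08 in wildtype and 0.87 to 1.15 in null hearts. The direction of the ratio rests on the probes of all 17 listed genes, without the limit on missing values. On 8 of 8 arrays their median, 0.70 to 1.22, lay above that of genes of other adult organs, taken the same way.

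Klf9 had lower values in null hearts. It stood at 0.48, -0.25, 0.19 and 0.23 in wildtype hearts and at -1.01, -0.48, -0.74 and -0.81 in null hearts. The groups did not overlap: wildtype replicate 2, the lowest wildtype array, lay above null replicate 2, the highest null array. The means were 0.16 ± 0.31 in wildtype and -0.76 ± 0.22 in null hearts (SD, n = 4 each), a difference of -0.92 (SE 0.17), or 1.90-fold lower. Its 2 probes differed by -0.78 and -1.07. Klf9 was above the array median on 3 of 4 wildtype arrays, and the null arrays all lay below it. The pair of spots that carry Klf9 together with the symbol 2310051E17Rik, which RefSeq lists as an older name of the same gene, had no value on any array.

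Nupr1, the stress-induced nuclear protein gene, showed a difference of like size. It read -0.47, -0.81, -0.12 and -1.06 in wildtype and -1.46, -1.61, -1.67 and -1.40 in null hearts. All null arrays lay below all wildtype arrays, and the null arrays lay closer together than the wildtype arrays. The means were -0.61 ± 0.41 and -1.53 ± 0.12 (SD, n = 4 each), which differ by -0.92 (SE 0.18), or 1.89-fold. Its 2 probes, each with 1 array missing, gave -1.14 and -0.87. These values chose Klf9 and Nupr1, so they describe the genes and are given with no test.

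**Figure D1:**
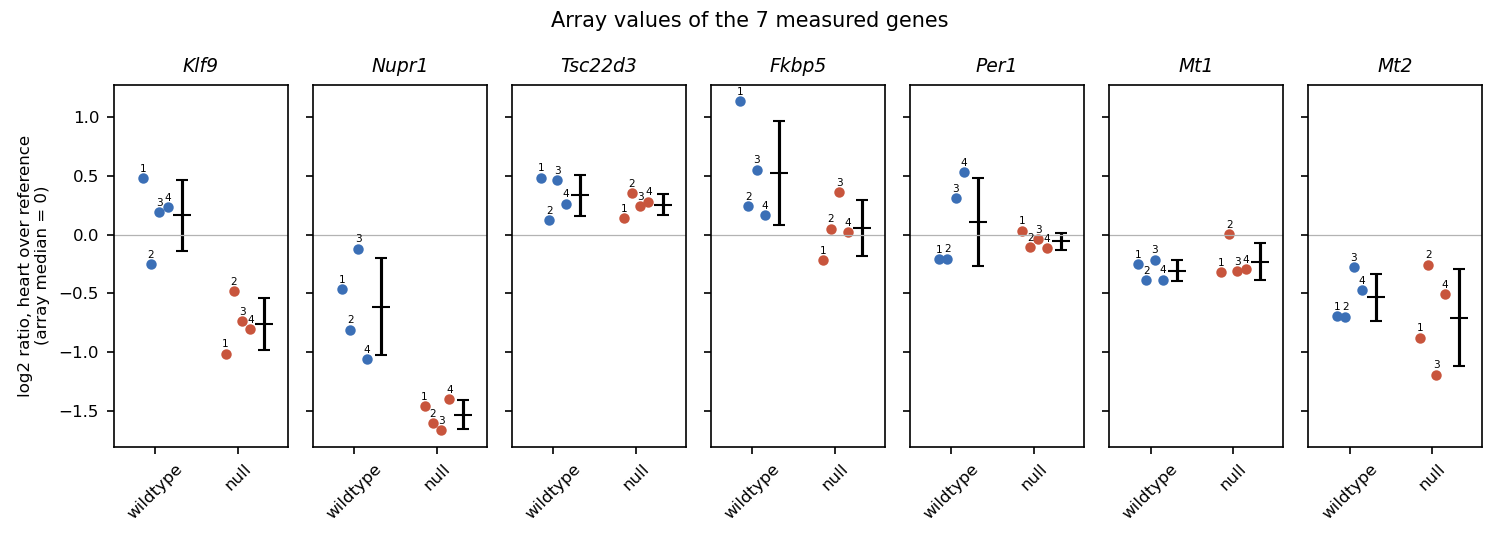
Log2 ratio of heart over reference (vertical axis, array median at 0) of the 7 measured genes on each array; numbers are replicates, blue is wildtype, red is null, and bars are mean ± SD over 4 arrays. Klf9 and Nupr1 are the genes whose groups do not overlap, and wildtype replicate 1 stands at 1.14 for Fkbp5.

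For Fkbp5, Tsc22d3 and Per1 the arrays of the genotypes overlapped. Fkbp5, which encodes a chaperone partner that dampens the receptor, had the largest difference of the 3. It read 1.14, 0.24, 0.55 and 0.16 in wildtype and -0.21, 0.05, 0.36 and 0.02 in null hearts. Wildtype replicate 1 stood far above the rest, and null replicate 3 lay above wildtype replicates 2 and 4. The difference was -0.47 (SE 0.21, 1.38-fold). With each array left out in turn it ranged from -0.59 to -0.26, the latter without wildtype replicate 1.

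Tsc22d3, which encodes the anti-inflammatory protein GILZ and is a widely used readout of the receptor, had means of 0.33 in wildtype and 0.25 in null hearts. It read 0.49, 0.12, 0.46 and 0.26 in wildtype and 0.14, 0.35, 0.24 and 0.28 in null hearts, with the null arrays inside the wildtype range. The difference was -0.08 (SE 0.12, 1.06-fold), with -0.17 and 0.02 on its 2 probes, and -0.15 to -0.03 with each array left out in turn. With arrays weighted by their quality it was 0.03, and without centring -0.24, where the median of all features was -0.18.

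Per1, a clock gene that glucocorticoid also induces, read -0.21, -0.20, 0.31 and 0.53 in wildtype and 0.03, -0.11, -0.04 and -0.12 in null hearts. The wildtype arrays spread widely (SD 0.37) around a tight null group (SD 0.07). The difference was -0.17 (SE 0.17, 1.12-fold). It was -0.02 without wildtype replicate 4, -0.27 without wildtype replicate 1 or 2, and -0.32 without centring. It rests on 1 probe, since the other had no value on any array.

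The metallothionein genes lie beside each other on chromosome 8, and for both the arrays of the genotypes overlapped. Mt1 read -0.25, -0.39, -0.21 and -0.38 in wildtype and -0.32, 0.0033, -0.31 and -0.30 in null hearts, a difference of 0.08 (SE 0.11). Its 3 probes gave 0.14, 0.02 and 0.07, and null replicate 2 stood above the other arrays. The difference was 0.0010 without null replicate 2 and 0.18 with arrays weighted by their quality. The sign turned without centring, to -0.08, which is still above the median of all features there.

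Mt2 read -0.69, -0.70, -0.28 and -0.47 in wildtype and -0.88, -0.26, -1.19 and -0.51 in null hearts. The null arrays enclosed the wildtype range, and the difference was -0.17 (SE 0.19), with -0.01 without null replicate 3 and -0.32 without null replicate 2. With arrays weighted by their quality it was 0.04, and without centring -0.33. The difference between Mt1 and Mt2 was not tested. Null replicate 2 was the highest null array for Klf9, Tsc22d3, Mt1 and Mt2 alike. Messages of Mt1 and Mt2 are similar, and signal shared between their spots was not tested.

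Cebpd and Sgk1 fell short of the limit on missing values. Cebpd, a transcription factor of inflammation and stress, lay just outside it with 2 wildtype arrays, at 0.02 and 0.08, and 3 null arrays, at 0.05, -0.35 and -0.35. Sgk1, a kinase gene induced by both corticosteroids, had 1 value in all, -0.06 on wildtype replicate 4. The single probes of Nupr1, with 3 arrays in 1 genotype, lay just inside.

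Of the 7 measured genes 6 had a lower mean in null hearts, as did 59.1% of all features. In 2 of the 7, Klf9 and Nupr1, every null array lay below every wildtype array, which 5.54% of all features did, and in 0 every null array lay above, which 2% did. Nothing is read from these counts, since the comparison chose the genes. The median difference of the 7 was -0.17, and -0.17 for the 5 other than Klf9 and Nupr1, against -0.04 for all features. Across the 12 probes 8 had a lower mean in null hearts.

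**Figure D2:**
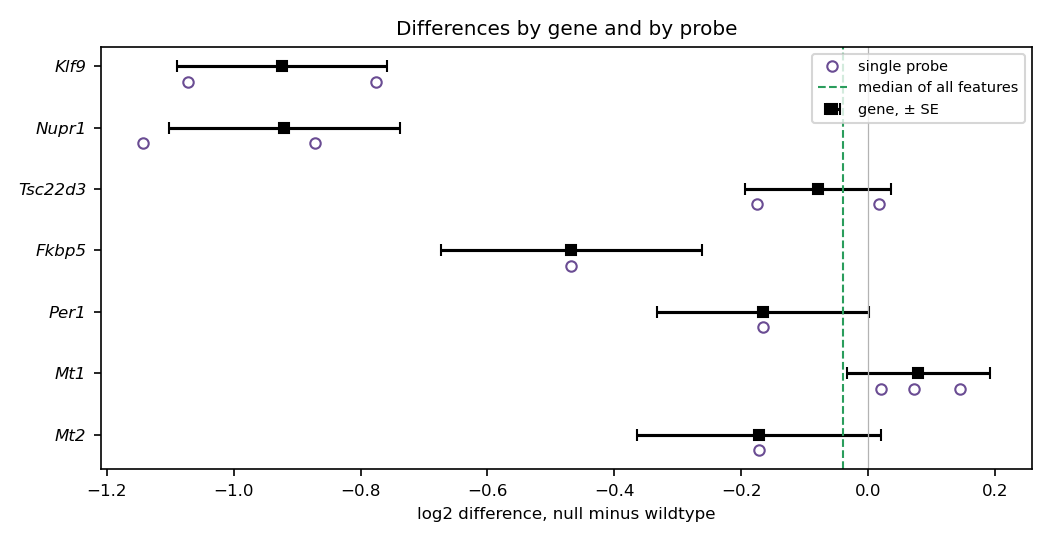
Log2 difference of null minus wildtype (horizontal axis) for the 7 genes (squares, ± SE of the fit) and for each of their 12 probes (open circles), with the median of all features, -0.04, as a dashed line. Both probes of Klf9 and of Nupr1 lie far to the left, and those of Mt1 and Tsc22d3 lie near 0.

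A separate question was how these genes stand in neonatal heart against the adult organs of the reference. That contrast averages both genotypes. Klf9 and Nupr1 were chosen for low values on the null arrays, which enter this mean, so their ratios are given with no test. All arrays used the same dyes, so dye bias stays in it, and it leaves out the spread of the reference itself. With limma, over all features, 28.2% were called higher and 27.4% lower than the array median at an adjusted p under 0.05.

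Of the 5 genes other than Klf9 and Nupr1, Mt1 and Mt2 were called lower and Tsc22d3 and Fkbp5 higher. Mt2 stood at -0.62 (SE 0.10, adjusted p = 0.000320), with every array below 0. Nupr1 averaged -1.07 (SE 0.09), below 0 on 8 of 8 arrays, and Klf9 averaged -0.30 (SE 0.08), a mean of unlike genotypes.

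Mt1 stood at -0.27 (SE 0.06, adjusted p = 0.00215), but its probes disagreed: on 1 of the 3 the mean was 0.0097 and not past the threshold. Tsc22d3 was higher, at 0.29 (SE 0.06, adjusted p = 0.00153), above 0 on 8 of 8 arrays. Fkbp5 was higher at 0.29 (SE 0.10, adjusted p = 0.0331), a call lost without wildtype replicate 1 (0.19, adjusted p = 0.0567) and without each of 4 other arrays. Without centring, Tsc22d3 (0.14, adjusted p = 0.190) and Fkbp5 (0.13, adjusted p = 0.458) were not called, and 1247 features were higher and 4864 lower in place of 3329 and 3238. Per1 did not pass, at 0.02 (SE 0.08, adjusted p = 0.819).

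**Figure D3:**
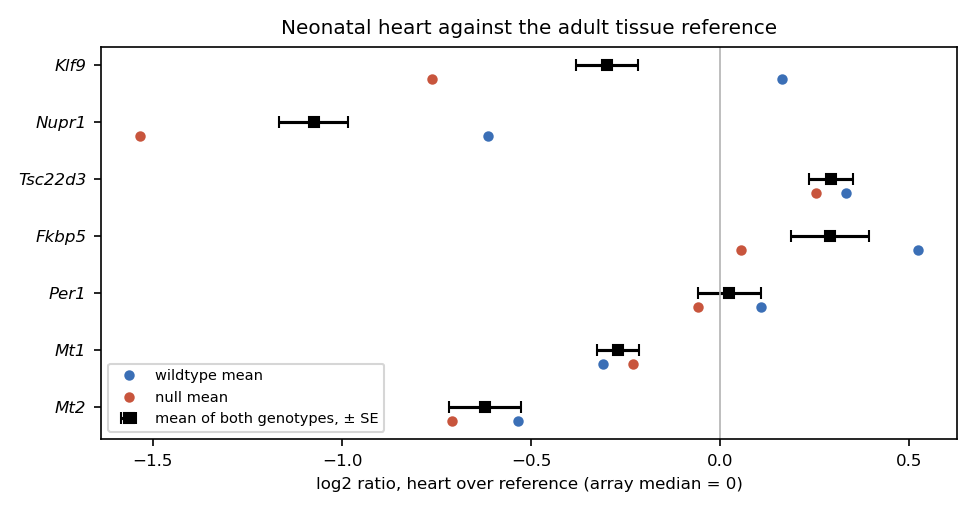
Log2 ratio of heart over reference (horizontal axis, array median at 0), as the mean of both genotypes ± SE of the fit (squares) and as the mean of wildtype (blue) and null (red) arrays. Nupr1 lies lowest at -1.07, and for Klf9 the wildtype mean, 0.16, and the null mean, -0.76, stand on either side of 0.

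Pools of 1 genotype also varied among themselves. The spread within genotypes was part of how Klf9 and Nupr1 were chosen, so their deviations come from values already used. The p-values below therefore describe these arrays and are no independent evidence. Deviations from the genotype means were compared between Klf9 and each of the 6 other genes over 8 arrays, with exact two-sided permutation within genotypes, 576 arrangements in all. Tsc22d3 followed Klf9 most closely, with r = 0.87 (p = 0.0122, adjusted p = 0.0729 in this exact permutation test) and rho = 0.79 (p = 0.0330, adjusted p = 0.146). It did not pass after adjustment over 6 comparisons, and r was 0.65 without wildtype replicates 1 and 2, the arrays farthest from the median of Klf9. Without centring Tsc22d3 passed (r = 0.95, adjusted p = 0.0312 by exact permutation), and so did Mt1 (r = 0.92, adjusted p = 0.0312 by exact permutation). All 6 r values were higher there, with 0.40 for Nupr1 and 0.33 for Per1. Values without centring keep the offset of each array, so nothing is read from these passes. With centring Mt1 gave r = 0.67 (exact permutation p = 0.109, adjusted p = 0.319) and rho = 0.69 (exact permutation p = 0.0486, adjusted p = 0.146), and r = 0.75 without those arrays. Fkbp5 gave r = 0.64 (exact permutation p = 0.160, adjusted p = 0.319) and rho = 0.50 (exact permutation p = 0.300, adjusted p = 0.451), and r = 0.28 without them.

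For Nupr1, the gene with the same difference between genotypes, r was 0.13 (exact permutation p = 0.884, adjusted p = 0.927) and rho 0.24 (exact permutation p = 0.740, adjusted p = 0.888), with r = -0.25 without those arrays. For Mt2 r was 0.34 (exact permutation p = 0.403, adjusted p = 0.604) and rho 0.48 (exact permutation p = 0.238, adjusted p = 0.451), with 0.53 without them. For Per1 r was 0.06 (exact permutation p = 0.927, adjusted p = 0.927), rho was 0 (exact permutation p = 1) and r was -0.06 without them.

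Among the 5676 other named genes with values on all arrays, 5 had deviations most like those of Klf9. They were Bckdha, a subunit gene of branched-chain amino acid breakdown (r = 0.97), the autophagy gene Atg13 (0.96), the major vault protein gene Mvp (0.96), Ramac, a cofactor of mRNA capping (0.95), and Dpy19l1 (0.95). Their differences between genotypes were -0.14, -0.22, -0.14, -0.25 and -0.05, all smaller than that of Klf9, and r without wildtype replicates 1 and 2 was 0.89 to 0.98. They are the extremes of a long list over 8 arrays and are named as a description.

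The surrounding pathways were followed in 8 lists, with the 9 genes left out. Of 177 listed genes 97 were measured. In the limma fit of null minus wildtype 0 of the 97 passed an adjusted p of 0.05 in either direction, as did 0 of all 11804 features (0%). Gja1 itself was among the features that did not pass. At an unadjusted p under 0.05, 15 were lower and 1 was higher in null hearts, beside 6.13% lower and 2.1% higher (8.23% in all) of all features. Of the 97, 65 had lower means in null hearts, beside 59.1% of all features. In 9 every null array lay below every wildtype array, beside 5.54% of all features, and in 1 above, beside 2%. These shares stand beside the counts of each list below. The lists were chosen with earlier results of these data known, so nothing is read from their medians and counts. The values that follow describe genes that did not pass.

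Other known targets of the glucocorticoid receptor had a median difference of -0.24 over 18 measured of 34 listed genes, against -0.04 for all features. Of the 18, 13 had lower means in null hearts, beside 59.1% of all features. At an unadjusted p under 0.05, 7 were lower, beside 6.13% of all features, and 0 higher. The 7 came to 4 without wildtype replicate 3. Glul, which encodes glutamine synthetase, read -0.47, -0.83, -0.47 and -0.76 in wildtype and -1.42, -1.01, -1.45 and -1.06 in null hearts. Its groups did not overlap, with a difference of -0.60 (SE 0.14, limma adjusted p = 0.420) and -0.63, -0.79 and -0.45 on its 3 probes.

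Klf15, a Kruppel-like factor of heart and muscle metabolism, read 0.35, 0.05, 0.54 and 0.21 in wildtype and -0.20, -0.14, -0.27 and -0.12 in null hearts. The groups lay on either side of 0, with a difference of -0.47 (SE 0.12, limma adjusted p = 0.519). The other 5 were singled out after their values were seen. They were the cell cycle inhibitor gene Cdkn1a (-0.43, SE 0.13), the stress gene Sesn1 (-0.76, SE 0.24) and the prostaglandin synthase gene Ptgds (-0.31, SE 0.11). Nfkbia, which encodes an inhibitor of NF-kB (-0.35, SE 0.13), and Rgs2, a brake on G protein signalling (-0.37, SE 0.14), completed them. The groups of Sesn1 overlapped, with 1.56 on wildtype replicate 1 and 0.13 on wildtype replicate 2. Those of Rgs2 overlapped too, and those of Cdkn1a, Ptgds and Nfkbia did not. The smallest p-values on the higher side belonged to Tat at 0.18 (SE 0.22) and Errfi1 at 0.04 (SE 0.12), neither under 0.05, and Dusp1, also a classical target, had 0.03 (SE 0.12).

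No measured gene of the receptor and its machinery passed the test. Nr3c1, which encodes the glucocorticoid receptor, had means of 0.06 in wildtype and 0.11 in null hearts, a difference of 0.05 (SE 0.12). Of 10 measured members of this list, 6 had lower means and 0 had an unadjusted p under 0.05, with a median of -0.03. Hsd11b1, whose enzyme regenerates active glucocorticoid inside cells, had -0.42 (SE 0.25) and the chaperone gene Hspa8 -0.12 (SE 0.12). Nr2f2, a nuclear receptor, had 0.31 (SE 0.19), and the co-chaperone gene Fkbp4 had 0.06 (SE 0.13).

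The Kruppel-like factor family, to which Klf9 belongs, had a median of -0.29 over 10 measured genes, Sp factors included. Of these 7 had lower means, beside 59.1% of all features. Of the 10, 4 were lower at an unadjusted p under 0.05, beside 6.13% of all features, and 0 higher. The 4 came to 2 among genes measured on all arrays. Klf4, a factor of endothelium and epithelium, read 0.02, -0.35, -0.59 and -0.31 in wildtype and -1.24, -0.72, -1.13 and -0.91 in null hearts. The groups did not overlap, and the difference was -0.69 (SE 0.16, limma adjusted p = 0.413), with -0.85 and -0.53 on its 2 probes. Klf15, given above, belongs to this list too, and Klf5 (-1.01, SE 0.28, 3 null arrays) and Klf6 (-0.31, SE 0.11, 3 wildtype arrays) were the others. Klf5 and Klf6 were singled out after their values were seen. The groups of Klf5 overlapped, and those of Klf6 did not. Klf3 had 0.09 (SE 0.15) and Sp1 0.05 (SE 0.09).

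Genes of ATF4 and of stress in the endoplasmic reticulum, to which Nupr1 is linked, were measured for 22 of 31 listed. Of the 22, 12 had lower and 10 higher means, with a median of -0.01, and 1 was lower at an unadjusted p under 0.05. Atf4 itself had -0.11 (SE 0.16), Ddit3, which encodes CHOP, 0.05 (SE 0.14), and Trib3 0.06 (SE 0.14). The chaperone cofactor gene Dnajb9 had -0.49 (SE 0.16), with the groups apart over 3 wildtype and 4 null arrays, and the stress sensor gene Eif2ak3 -0.29 (SE 0.14). Calr, a calcium-binding chaperone gene, had 0.39 (SE 0.19) and Pdia4 0.11 (SE 0.12).

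Among clock genes, of which Per1 is one, the median was -0.14 over 12, with 2 lower at an unadjusted p under 0.05. They were Nr1d2, a repressor of the clock (-0.47, SE 0.13), with the groups apart over 4 wildtype and 3 null arrays, and Arntl, which encodes the clock activator BMAL1 (-0.39, SE 0.15). Csnk1e had 0.20 (SE 0.15) and Npas2 0.19 (SE 0.15). The time of day at which hearts were taken is not in the labels.

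Immediate early genes, which respond to handling within minutes, had a median of -0.06 over 14. Ier3 was the 1 gene of all lists that was higher at an unadjusted p under 0.05, at 0.62 (SE 0.20). It read 0.39, 0.57, -0.0014 and -0.50 in wildtype and 0.60, 0.92, 0.73 and 0.71 in null hearts, with all null arrays above. Myc had -0.29 (SE 0.12) and Gadd45g -0.35 (SE 0.16), the 2 that were lower, and Zfp36l1 had 0.15 (SE 0.11). Fos and Jun, the best known of the class, had -0.03 (SE 0.11) and -0.05 (SE 0.12).

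Genes of metal and oxidative stress had a median of -0.11 over 7, of which 0 had an unadjusted p under 0.05 in either direction. Mtf1, which encodes the metal sensor that drives Mt1 and Mt2, had -0.21 (SE 0.16), with 0.10 and -0.50 on its 2 probes. The zinc exporter gene Slc30a1 had -0.17 (SE 0.13), and Nfe2l2 0.20 (SE 0.20). In the thyroid hormone pathway 5 of 15 genes were measured, all with lower means, beside 59.1% of all features. Their median was -0.14, with 0 at an unadjusted p under 0.05. Among them were the coactivator gene Med1 (-0.31, SE 0.21) and the retinoid receptor gene Rxrb (-0.14, SE 0.16).

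**Figure D4:**
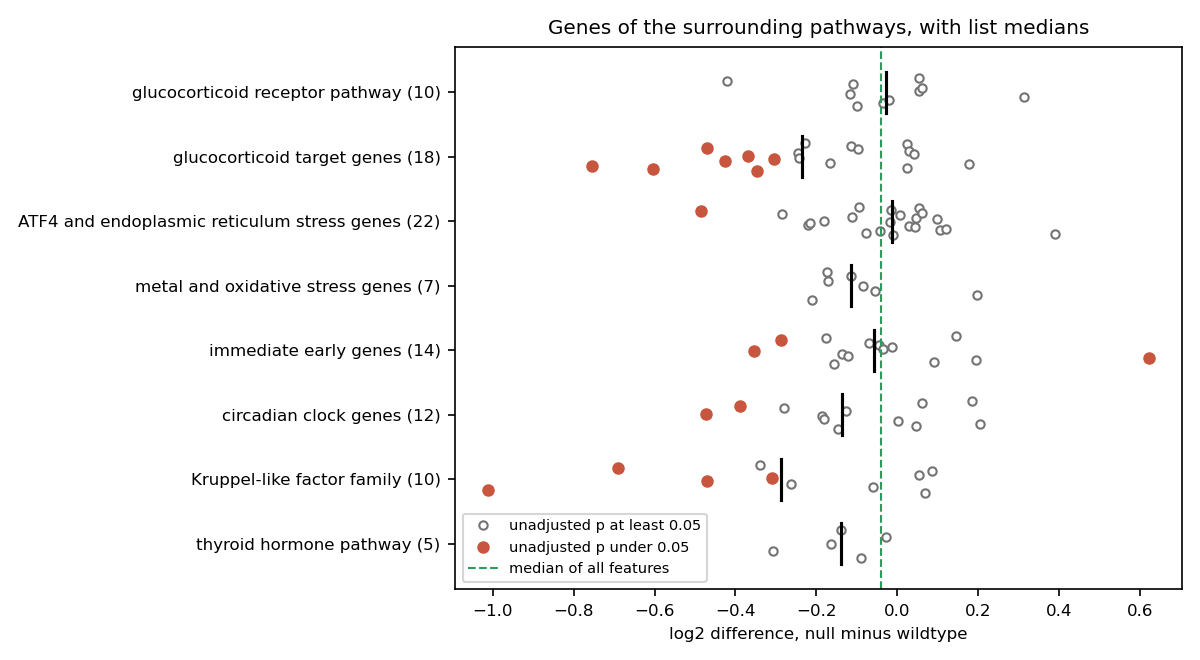
Log2 difference of null minus wildtype (horizontal axis) for each measured gene of the 8 lists (number measured in brackets); filled points have an unadjusted p under 0.05, black bars are list medians, and the dashed line is the median of all features, -0.04. No point passed after adjustment over all features, and the medians of the glucocorticoid targets (-0.24) and of the Kruppel-like family (-0.29) lie furthest left. Klf15 is in both of these, and all lists were chosen with earlier results of these data known.

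Markers of other organs and cell types were read on the same arrays. Genes of other adult organs (7 of 20 measured: Alb, Apoa1, Ttr, Sftpc, Scgb1a1, Tnp1 and Tff1) all had lower means in null hearts, as 59.1% of all features did, with a median of -0.33. Their mean ratio was -2.50 to -2.03 in wildtype and -2.96 to -2.55 in null hearts, with no test of the difference. The lists for lung epithelium and liver leave out Sftpc, Scgb1a1, Alb, Apoa1 and Ttr, which were counted above. Of the other lung epithelial markers 1 of 7 was measured, Cbr2, at -1.84 to -0.87 in wildtype and -2.94 to -2.30 on 3 null arrays. Endothelial markers (7 of 10) had a median of 0.18 and overlapping means, 0.40 to 0.91 and 0.64 to 0.79, and macrophage markers (6 of 11) had a median of -0.03. Smooth muscle (2 of 5), fibroblast (6 of 9), erythroid (6 of 11), liver (5 of 10), fat (2 of 7) and lymphocyte markers (1 of 12, Cd79b) had medians of -0.06, 0.10, 0.21, -0.14, 0.13 and -0.30, all with arrays of the genotypes overlapping. Lower means in null hearts were found for 0 of 6 fibroblast, 0 of 6 erythroid and 1 of 7 endothelial markers, beside 59.1% of all features. They were found for 3 of 6 macrophage, 2 of 2 smooth muscle, 4 of 5 liver and 1 of 2 fat markers, and for Cd79b. The part of these cells in the values of Klf9, Nupr1, Glul, Klf4 and Klf5 was not tested. Features with low ratios tended to have lower values in null hearts: with that trend taken off, the difference was -0.83 for Klf9 and -0.67 for Nupr1, and the counts of lower genes were 5 of 18 glucocorticoid targets and 4 of 10 Kruppel-like factors.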

How the data were processed

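Deposited values are log2 ratios of the 2 dyes per spot on 8 arrays. The authors' scanner software, background correction, spot filter and scaling were not given in the sources used here. The base was taken as 2 from the deposited values: within blocks of spots, 31304432 differences were compared with logs of fractions made of integers no larger than 120, and 8347 agreed to 1.5e-09 in base 2, against 269 in base e and 863 in base 10. Heart was taken as numerator by the tissue rule given above.

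Arrays were centred on their medians. Probes were named through the platform annotation (18511 of 28704 with 1 symbol, 937 with several, 9256 unnamed here), and all 9 genes matched RefSeq by gene number. Probes sharing a symbol were combined in an additive model with probe and array terms. limma 3.58.1 (R 4.3.3, lmFit and eBayes without trend) gave differences, SE and Benjamini-Hochberg adjusted p-values over all features, at a threshold of 0.05. The SE of a difference had a median of 0.14, and the number of arrays limits the precision. The fits were run on simulated data with independent noise for each feature. Array offsets and a trend with the ratio were not simulated, so that run does not cover them. Replicates are pools of different hearts, each on 1 array. The p-values therefore rest on the spread of pools and arrays together, which cannot be told apart.

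The members and lists were chosen with earlier results of these data known. Named were all 9 genes, Gja1, from each list the 2 genes in each direction with the smallest p, and the 5 genes most like Klf9. Nr3c1, Dusp1, Atf4, Ddit3, Trib3, Fos and Jun are named for their role. Outside this rule, Cdkn1a, Sesn1, Ptgds, Nfkbia, Rgs2, Klf5 and Klf6 were named after their values were seen. Each of them was lower in null hearts at an unadjusted p under 0.05. Alternatives were other centring and normalization, other limits on missing values, other handling of probes, robust eBayes, array weights, each array left out and the replicate number as a block. The trend correction was added after seeing the data. Figures used Python 3.11.15 and matplotlib 3.10.9.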

Additional observations from a re-analysis of the deposited data

Results flagged for a closer look

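Of the 14 groups of 4 arrays (7 genes in each genotype), 1 had an array far from the others. Mt1 read 0.0033 on null replicate 2, while the next null array read -0.30, a gap of 0.93 of the whole range of the group. Chance marks about 1 in 20 such groups. Without that array the Mt1 difference between genotypes was 0.0010.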

How the results depend on the processing

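The differences of Klf9 and Nupr1 kept their sign under all alternatives that gave a value, from -1.08 to -0.71 and from -1.14 to -0.67. Nupr1 gave none when values on all 8 arrays were needed, since each of its probes misses 1. They were -0.82 and -0.87 without wildtype replicate 1, which had the fewest values. Without centring, 28 features were higher and 1364 lower in null hearts at an unadjusted p under 0.05, in place of 248 and 724, the median difference was -0.18, and against the reference 1247 were called higher and 4864 lower. Klf9 deviations then passed for Tsc22d3 (r = 0.95, adjusted p = 0.0312 by exact permutation). Those against Mt1 passed too (r = 0.92, adjusted p = 0.0312 by exact permutation). Every r was higher than with centring, also for Nupr1 (0.40) and Per1 (0.33). As with centring, these p-values use values already used to choose Klf9 and are no independent evidence. Values without centring keep the offset of each array, whose deposited median was 0.21 on wildtype replicate 1 and -0.34 to -0.08 on the others. The cause was not tested. Fewer features were lower when values on all 8 arrays were needed (440, of which 2 in the Kruppel-like family), where fewer genes are tested, and with the trend taken off (375); with single probes 380 were higher. Features called between genotypes numbered 0 under every alternative fit and also at an adjusted p under 0.1, while 972 had an unadjusted p under 0.05. With each array left out in turn, glucocorticoid targets lower at an unadjusted p under 0.05 numbered 4 to 7, those of the Kruppel-like family 3 to 6, and features lower 503 to 753. The ratio of Mt1 to the reference was 0.0097 on 1 of its 3 probes and -0.48 and -0.34 on the others. All 3 had values on every array. Fkbp5 lost its call against the reference on leaving out any of wildtype replicates 1 and 3 and null replicates 2, 3 and 4 (adjusted p from 0.0567 to 0.0885) and with the replicate block (adjusted p = 0.0540). Replicate numbers are shared by label only: deviations of same-numbered arrays correlated at -0.25 to -0.01, and 0 of 8 arrays were most like their own number. With the number as a block, 514 features were lower and 192 higher at an unadjusted p under 0.05, and 0 were called.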
